A study of Oryza sativa with 36 samples.

Results

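Chitinases are glycoside hydrolases that cleave chitin, the polymer of fungal cell walls and of the cuticle and gut lining of insects. Plants hold many of them in several classes, and some are induced as pathogenesis-related proteins by infection, wounding or feeding. Class I and class IV enzymes carry a chitin-binding domain before the catalytic domain, and class II enzymes lack it. Released chitin fragments are perceived in rice by the receptors CEBiP and CERK1.

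The chitinase genes were taken as every gene whose symbol or synonym is Cht with a number, CH16 or chia with a number. The names came from the RefSeq gene table, to which the array annotation was tied by gene number. The rule found 12 genes, of which 10 had at least 1 probe set tied to a single gene, 13 probe sets of the 57194 on the array. In the whole series 17905 genes had such a probe set. The 10 genes were CH16, chia4a, Cht2, Cht3, Cht4, Cht6, Cht7, Cht9, Cht10 and Cht11. Cht12 and OsChia1b had no single-gene probe set and were not analysed here. Some names are shared. Cht2 is a synonym both of the measured gene on chromosome 10 (also Cht8 and OsChia2a) and of OsChia1b on chromosome 5, and Cht1 is a synonym of CH16 and of Cht9.

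Expression was measured in shoots of 2-week-old seedlings of 2 indica rice varieties, RH (Rathu Heenati, resistant to the brown planthopper, BPH) and TN1 (Taichung Native 1, susceptible). Seedlings were left untreated under natural growth (C), pricked 15 times each with a needle at the base (N), or infested with about 100 third-instar BPH nymphs per pot (P), and were collected at 6 or 24 h. The 12 groups are written as variety, hour and treatment, so that R6C is untreated RH at 6 h and T24P is infested TN1 at 24 h. Each group had 3 replicates, each a pool of the 10 seedlings of 1 pot on 1 Affymetrix Rice Genome Array, 36 arrays in all. The nymphs of all infested pots came from a population kept on TN1. A net cage is described for the infested pots, so that caging and infestation cannot be told apart if the other pots had none.

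The unit is the intensity of a probe set on a linear scale. Array medians lay between 35.8 and 39.8, and the lowest correlation of an array within its group lay between 0.988 and 0.997 over the groups' arrays. As a check of the tissue, CAB2R, a light-harvesting protein of leaves, had a mean intensity of 17651 on one of its probe sets. None of the 11 probe sets of photosynthesis genes passed both an adjusted p under 0.05 in limma and 2-fold in any treatment comparison. In the difference between the varieties' responses to infestation at 24 h, 1 of the 11 passed the adjusted p, as did 9.55% of all probe sets. Replicate 1 of T24P was the highest array of its group for 7 chitinase genes (Cht2 on its 2 bright probe sets), far above the other 2 for CH16, chia4a and Cht2, and replicate 2 of T24C stood above its group for Cht11.

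The 13 probe sets covered a wide span of intensities. Probe sets of CH16, chia4a, Cht10 and Cht11 and 2 of the 3 of Cht2 lay above the array median on all 36 arrays. Both probe sets of Cht3 did so on 35 arrays, and that of Cht6 on 11. The probe sets of Cht4, Cht7 and Cht9 and the third of Cht2 lay below the median on every array, with intensities from 4.82 (Cht4) to 33.0 (Cht9), and no detection calls were used to show that they lay above background. Intensities of different probe sets are not compared as levels.

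In the whole family, 57 calls were made over 13 probe sets and 28 comparisons, with both bright probe sets of Cht2 counted. The share of all probe sets is given with the counts of each comparison below. A call needs an adjusted p under 0.05 in limma (Benjamini-Hochberg, over the whole array) and a difference of at least 2-fold, or the adjusted p alone for the interaction of variety and treatment. No chitinase probe set was called lower in a treated than in an untreated group. The share of all probe sets called lower in these comparisons was not counted, so this is not read as a trait of the family. The 3 patterns described first are those of Cht11, called higher under BPH infestation in 3 of 4 comparisons and under needle puncturing in none; of CH16, Cht2 and chia4a, each called higher under both treatments; and of Cht10, called higher only in infested TN1 at 24 h.

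**Figure D1:**
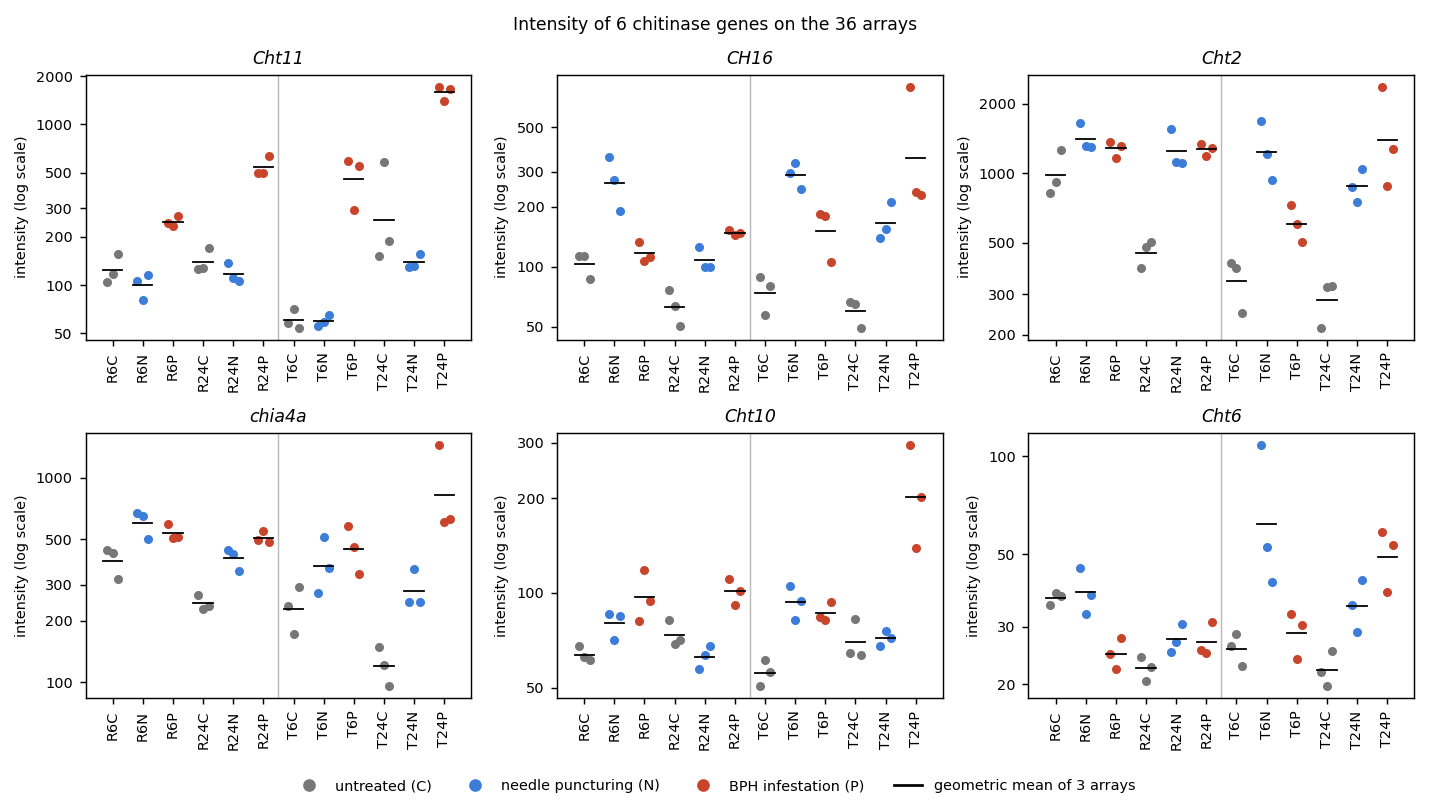
Intensity (log axis) of the probe sets of Cht11, CH16, Cht2 (the brightest of its 3), chia4a, Cht10 and Cht6 on each of the 36 arrays, as points in the order of replicates, with the geometric mean of each group as a line and RH left of TN1. Cht11 is highest in the 3 T24P arrays, from 1404 to 1719.8, while CH16, Cht2 and chia4a have 1 T24P array far above the other 2.

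Cht11, a chitinase gene on chromosome 3, had the largest rise of the family under BPH infestation relative to puncturing, in each of the 4 comparisons of these treatments. In TN1 its intensity was 57.9, 71.5 and 54.3 in the T6C arrays, 55.7, 58.7 and 65.6 in T6N, and 589.7, 293 and 547 in T6P. The punctured arrays overlapped the untreated ones, and all infested arrays lay above both. The log2 change was 2.91 (SE 0.288, adjusted p = 9.78e-07, limma) for T6P/T6C and -0.02 (SE 0.288, adjusted p = 0.990, limma) for T6N/T6C. At 24 h it measured 151, 582 and 188 in T24C, 129, 132 and 156 in T24N, and 1719.8, 1404 and 1661 in T24P. Every T24P array lay above every other array of the series, and T24C replicate 2 lay above the other arrays of both untreated and punctured TN1. T24P/T24C was 2.64 (SE 0.288, adjusted p = 9.87e-09, limma), and 3.24 without T24C replicate 2. In bulk shoots, a change in the number of expressing cells and one in RNA per cell cannot be told apart.

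In RH, Cht11 measured 105, 118 and 157 in R6C, 106, 81.3 and 115 in R6N, and 243, 232 and 269 in R6P. The infested arrays lay above all others of RH at 6 h, yet R6P/R6C, at a log2 change of 0.99 (SE 0.288), missed the threshold with an adjusted p of 0.0536 from limma and was not called. At 24 h the values were 126, 127 and 170.2 in R24C, 136, 110.0 and 107 in R24N, and 501, 501 and 635 in R24P. Again the infested arrays stood apart and the punctured ones overlapped the untreated ones, and R24P/R24C was 1.96 (SE 0.288, adjusted p = 1.39e-05, limma). R24N/R24C was -0.26 (adjusted p = 0.989, limma).

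Set against puncturing directly, infestation gave higher Cht11 in all 4 comparisons. The log2 differences were 1.31 in RH at 6 h (adjusted p = 0.0196), 2.21 in RH at 24 h (3.92e-06), 2.93 in TN1 at 6 h (1.49e-07) and 3.52 in TN1 at 24 h (3.47e-11), all from limma with an SE of 0.288. That for RH at 6 h lost its call without R6N replicate 1 or 2 or R6P replicate 2 or 3, with differences of 1.17 to 1.36. The other 3 kept their call whichever array was left out. In order of mean intensity the groups ran T24P (1595), R24P (546), T6P (477), T24C (307), R6P (248), R24C (141), T24N (139), R6C (126), R24N (118), R6N (101), T6C (61.2) and T6N (60.0). Among neighbours in that order, only T24P over R24P, R6P over R24C and R6N over T6C did not overlap.

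CH16, a class I chitinase (OsChia1a) on chromosome 6, rose after puncturing at 6 h. In TN1 it measured 89.1, 57.4 and 79.7 in T6C and 295, 332 and 247 in T6N, a log2 change of 1.96 (SE 0.300, adjusted p = 1.35e-04, limma). In RH it measured 113, 113 and 86.9 in R6C and 353, 273 and 191 in R6N, a change of 1.35 (SE 0.300, adjusted p = 0.0307, limma). The groups did not overlap in either variety. The call in RH was lost without any 1 of 5 arrays (each of R6C, and R6N replicates 1 and 2), with changes from 1.14 to 1.42.

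At 24 h CH16 measured 66.5, 65.3 and 49.5 in T24C and 139, 155 and 212 in T24N. These did not overlap, and T24N/T24C was 1.47 (SE 0.300, adjusted p = 0.0374, limma), a call lost without any 1 of these 6 arrays. In RH, R24C measured 76.6, 63.8 and 50.7 and R24N 126, 99.5 and 100.3. The ranges were again separate, but R24N/R24C, at 0.78 (adjusted p = 0.637, limma), was not called. From 6 to 24 h after puncturing, CH16 fell in RH, with R24N/R6N at -1.29 (SE 0.300, adjusted p = 0.00187, limma).

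Under infestation CH16 measured 133, 107 and 112 in R6P and 183, 179 and 106 in T6P. R6P overlapped R6C, with a log2 change of 0.18, and T6P lay above T6C, with a change of 1.03 that missed the threshold (adjusted p = 0.0600, limma). It measured 153, 144 and 148 in R24P and 801, 237 and 230.0 in T24P. All of these lay above the untreated arrays of the same variety and hour. R24P/R24C was 1.24 (SE 0.300, adjusted p = 0.00425, limma) and T24P/T24C 2.55 (adjusted p = 3.96e-08, limma), or 1.96 without T24P replicate 1, the array at 801. CH16 was also called higher in T24P than in T24N, at 1.08 (adjusted p = 0.00547, limma), but without T24P replicate 1 that difference was 0.49 (adjusted p = 0.160), and without T24N replicate 1 it was 0.96, below 2-fold.

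Cht2, the class II chitinase OsChia2a, had 2 probe sets that ran together (r = 0.998 over the 12 group means, a description) and 1 more that lay below every array median, for which no change was called. On the brightest probe set it measured 408, 391 and 249 in T6C, 1688, 1213 and 933 in T6N, and 728, 605 and 505 in T6P. Here the punctured arrays were the highest, the infested ones lay between, and no 2 of the 3 groups overlapped. T6N/T6C was 1.86 (SE 0.253, adjusted p = 2.16e-05, limma), while T6P/T6C was 0.83 (adjusted p = 0.0754, limma) and was not called.

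For TN1 at 24 h, Cht2 measured 215, 322 and 326 in T24C, 873, 755 and 1045 in T24N, and 2374, 884 and 1278 in T24P. Both treated groups lay above the untreated one and overlapped each other. T24N/T24C was 1.64 (SE 0.253, adjusted p = 0.00174, limma), with an adjusted p of 0.0546 without T24C replicate 1, and T24P/T24C was 2.30 (adjusted p = 1.17e-08, limma), or 1.91 without T24P replicate 1.

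Untreated RH at 6 h was already high in Cht2. The gene measured 821, 918 and 1256 in R6C, 1658, 1319 and 1296 in R6N, and 1366, 1168 and 1319 in R6P. Neither treatment was called there, at 0.53 and 0.38. By 24 h the untreated arrays were at 388, 478 and 502, below R24N at 1553, 1119.9 and 1112 and R24P at 1334, 1192 and 1290.0. The treated groups overlapped each other and not the untreated one. R24N/R24C was 1.46 (SE 0.253, adjusted p = 0.0125, limma), a call lost without any 1 of 4 arrays (each of R24C, and R24N replicate 3), and R24P/R24C was 1.49 (adjusted p = 9.67e-05, limma). Cht2 fell from 6 to 24 h in untreated RH, with R24C/R6C at -1.11 (adjusted p = 0.00149, limma), or -0.94 without R6C replicate 3, below 2-fold. The second bright probe set gave the same calls in these treatment comparisons, with 1.36 for R24N/R24C and 1.35 for R24P/R24C.

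chia4a, the class IV chitinase OsChia4a on chromosome 4, rose most in infested TN1. It measured 148, 121 and 95.9 in T24C, 248, 358 and 248 in T24N, and 1455, 609.6 and 628 in T24P. The 3 groups did not overlap, and T24P replicate 1 stood far above the rest. T24P/T24C was 2.78 (SE 0.255, adjusted p = 3.42e-10, limma), or 2.37 without that array. T24N/T24C was 1.23 (adjusted p = 0.0421, limma), a call that 17 of the 36 leave-one-out fits lost, each of its own 6 arrays among them. T24P/T24N was 1.55 (adjusted p = 1.23e-05, limma), and 1.14 without T24P replicate 1.

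In RH at 24 h chia4a measured 267, 228 and 235 in R24C, 446, 424 and 350.2 in R24N, and 498, 553 and 484 in R24P. All 3 groups were separate, in that order, and only R24P/R24C was called, at 1.07 (SE 0.255, adjusted p = 0.00369, limma). At 6 h it measured 443, 430.1 and 320.2 in R6C, 671, 649 and 502 in R6N, and 595, 511 and 512 in R6P. The untreated arrays lay below both treated groups, with changes of 0.61 and 0.45 that were not called. In TN1 at 6 h the values were 236, 171 and 293 in T6C, 274, 512 and 364 in T6N, and 583, 459 and 339.8 in T6P. T6P/T6C, at 0.98, passed the adjusted p (0.0331, limma) just below 2-fold.

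Cht10, a chitinase gene on chromosome 1, was called only where infested TN1 at 24 h entered the comparison. It measured 64.4, 82.8 and 63.6 in T24C, 67.5, 75.5 and 72.0 in T24N, and 295, 139 and 201 in T24P. The infested arrays were the 3 highest of the series, above the R6P, R24P and T6N arrays. T24P/T24C was 1.53 (SE 0.168, adjusted p = 1.04e-08, limma) and T24P/T24N 1.50 (adjusted p = 1.84e-08, limma), or 1.26 and 1.22 without T24P replicate 1. Smaller changes passed the adjusted p below 2-fold at T6N/T6C (0.74), T6P/T6C (0.63), R6P/R6C (0.61) and R24P/R24N (0.69).

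Cht6, a chitinase gene on chromosome 2, measured 26.1, 28.5 and 22.9 in T6C, 108, 52.7 and 41.3 in T6N, and 32.9, 23.9 and 30.3 in T6P. The punctured arrays lay above both others, with replicate 1 far above the other 2. T6N/T6C was 1.26 (SE 0.214, adjusted p = 5.31e-04, limma), and without T6N replicate 1 it was 0.86, below 2-fold. At 24 h it measured 21.8, 19.8 and 25.2 in T24C and 58.4, 38.3 and 53.4 in T24P, which did not overlap, and T24P/T24C was 1.15 (adjusted p = 6.13e-05, limma), or 1.03 without T24P replicate 1. In RH its changes under treatment lay between -0.57 and 0.30 and were not called. The lowest was R6P/R6C, where the infested arrays (22.2 to 27.8) all lay below the untreated ones (34.9 to 38.1).

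The remaining genes moved little. Cht3 (OsChia1c), the neighbour of CH16 on chromosome 6 with no annotated gene between them, changed by 0.57 (adjusted p = 1.21e-04) and 0.52 (adjusted p = 0.00153, limma) in T24P/T24C on its 2 probe sets, below 2-fold, and by 0.65 on 1 of them in T6N/T6C. Both are of the type that may share probes with other transcripts, and over the 12 group means they had r of 0.873 and 0.860 with CH16, a description. Cht4 (OsChia2b), which has 2 annotated genes between it and chia4a, was between 4.82 and 9.35 on all arrays and was called in no comparison. Cht7 and Cht9, adjacent on chromosome 5, were below the array median throughout. Cht7 lay between 8.29 and 13.3 and was called nowhere. Cht9 measured 12.6, 14.0 and 14.2 in T6C, 33.0, 25.3 and 21.8 in T6N and 12.5, 14.8 and 11.8 in T6P. Its punctured arrays lay above both other groups, with T6N/T6C at 0.95 (adjusted p = 4.00e-04, limma) and T6P/T6N at -1.02 (adjusted p = 4.00e-04, limma). The latter fell below 2-fold without T6N replicate 1, T6P replicate 1 or T6P replicate 3.

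**Figure D2:**
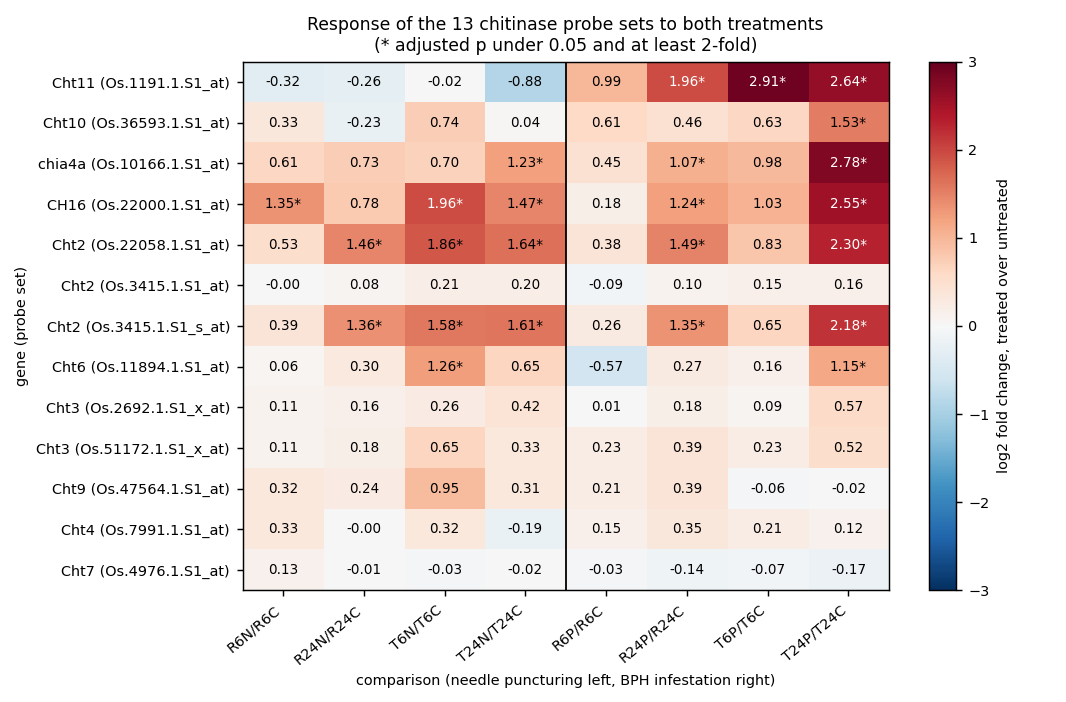
Log2 fold change of treated over untreated seedlings for the 13 chitinase probe sets (rows) in 8 comparisons (columns), with needle puncturing left of the line and BPH infestation right; colour and number give the same value. Cht11 is at or below 0 in the 4 needle columns and between 0.99 and 2.91 in the 4 BPH columns.

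Counted over the family, needle puncturing raised 1 of 13 probe sets in R6N/R6C against 0.156% of all probe sets, 2 in R24N/R24C against 0.021%, 4 in T6N/T6C against 0.385% and 4 in T24N/T24C against 0.0507%. BPH infestation raised 0 in R6P/R6C against 0.316%, 5 in R24P/R24C against 0.956%, 1 in T6P/T6C against 0.309% and 7 in T24P/T24C against 3.53%. In R6P/R6C, 3 chitinase probe sets had an unadjusted p under 0.05 in limma. A one-way ANOVA of only the groups compared, with the same fold, called 0 both with and without adjustment. These counts hold both bright probe sets of Cht2. The 2 probe sets of R24N/R24C belonged to 1 gene, Cht2. The 4 of T6N/T6C and the 4 of T24N/T24C belonged to 3 genes each, and the 5 of R24P/R24C to 4 genes. The 7 probe sets of T24P/T24C belonged to 6 genes, CH16, chia4a, Cht10, Cht11, Cht2 and Cht6. The median log2 change of the 13 probe sets was 1.15 in T24P/T24C, where that of all probe sets was -0.03, and 0.70 in T6N/T6C against -0.01. It was 0.39 in R24P/R24C against -0.03 and 0.23 in T6P/T6C against -0.02. Both treatments were set against the same untreated arrays, so their calls are not independent.

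In the direct comparison of infestation with puncturing, 1 probe set was called in R6P/R6N (0.199% of all probe sets in either direction) and 1 in R24P/R24N (0.757%), Cht11 in both. Of the 4 called in T24P/T24N (6.08%), CH16, chia4a, Cht10 and Cht11, all were higher under infestation. The 4 called in T6P/T6N (0.194%) went both ways. Cht11 was higher under infestation, and Cht2 (-1.03, adjusted p = 0.0476), Cht6 (-1.10, adjusted p = 0.00606) and Cht9 (-1.02) were lower, all from limma. The call of Cht2 was lost in 26 of the 36 leave-one-out fits and was not made on its other bright probe set (-0.93). That of Cht6 was lost without T6N replicate 1 (-0.70) or T6P replicate 2 (-0.97). CH16 at 6 h was lower under infestation than under puncturing without a call, at -1.17 in R6P/R6N and -0.93 in T6P/T6N (adjusted p = 0.199, limma). In both varieties its infested arrays lay below all punctured ones. R6P/R6N was called in some of the leave-one-out fits, such as that without R6N replicate 3 (-1.41).

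**Figure D3:**
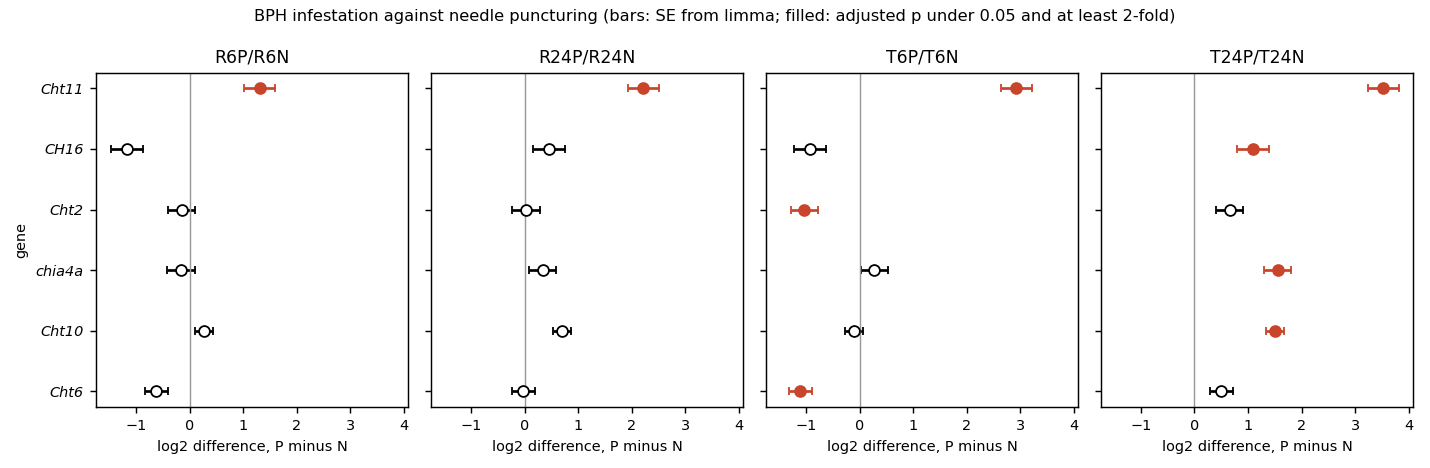
Log2 difference of BPH infestation minus needle puncturing (x axis) for 6 chitinase genes (y axis) in RH and TN1 at 6 and 24 h; points are limma estimates from 3 arrays a group, bars their SE, and filled points are called. Cht11 lies right of 0 in all 4 panels, from 1.31 to 3.52. Cht2, Cht6 and CH16 lie left of 0 in TN1 at 6 h, CH16 not called. In RH at 6 h CH16 lies furthest left, at -1.17, and was not called.

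The varieties differed in the untreated state. In R6C/T6C 3 probe sets were called (2.91% of all), those of Cht11, at 1.04 (adjusted p = 0.0151, limma), and 2 of Cht2, at 1.52 (adjusted p = 3.81e-05, limma) and 1.42. Cht2 measured from 821 to 1256 in R6C and from 249 to 408 in T6C. The call of Cht11 was lost without R6C replicate 3 (0.87) or T6C replicate 1 or 3. In R24C/T24C 1 was called (2.75%), chia4a at 1.02 (adjusted p = 0.00618, limma), which was lost without R24C replicate 1 (0.95) or T24C replicate 3 (0.86). In the same comparison Cht11 was at -0.86 and missed the threshold (adjusted p = 0.0554, limma). It was at -0.27 without T24C replicate 2 (adjusted p = 0.653), and was called without T24C replicate 1 (-1.24) or replicate 3 (-1.08).

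After puncturing no chitinase probe set was called between the varieties in R6N/T6N (2.92%) or R24N/T24N (2.81%), although 5 and 2 had an unadjusted p under 0.05 in limma, and the one-way ANOVA called 0 in both. In R6N/T6N 3 passed limma's adjusted p below 2-fold, all lower in RH. They were Cht9 (-0.80, adjusted p = 4.54e-04), Cht6 (-0.69, adjusted p = 0.0346) and 1 probe set of Cht3 (-0.43, adjusted p = 0.0263). Without T6N replicate 1, Cht9 was at -0.64 and Cht6 at -0.29. In R6P/T6P 2 were called (3.11%), both of Cht2, at 1.08 (adjusted p = 0.00276, limma) and 1.04, and both fell below 2-fold without T6P replicate 3, the second also without R6P replicate 1 or T6P replicate 2. In R24P/T24P 2 were called (5.81%), and both were lower in RH. Cht11 was at -1.55 (adjusted p = 8.26e-05, limma), which held in all leave-one-out fits, and CH16 at -1.24 (adjusted p = 0.00173, limma), which was -0.65 without T24P replicate 1. Cht10 (adjusted p = 2.05e-05, limma) was also lower in RH, just short of 2-fold, and Cht6 was at -0.86; without T24P replicate 1 they were at -0.72 and -0.74. Averaged over the 6 conditions, Cht2 was higher in RH by 0.64 (SE 0.103, adjusted p = 6.97e-06) and chia4a by 0.43 (adjusted p = 0.00134), and Cht6 was lower by 0.26 (adjusted p = 0.0199), all from limma.

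The response to infestation itself was compared between the varieties as an interaction. At 6 h 1 of 13 probe sets passed (0.11% of all), Cht11, at -1.92 for RH minus TN1 (SE 0.407, adjusted p = 0.0482, limma), so that the rise was smaller in RH. This call lay at the threshold and was lost in 30 of the 36 leave-one-out fits. At 24 h 3 passed (9.55%), and the response was smaller in RH for each. The differences of RH minus TN1 were -1.71 for chia4a (SE 0.361, adjusted p = 0.00213, limma), -1.08 for Cht10 (SE 0.237, adjusted p = 0.00306, limma) and -1.31 for CH16 (SE 0.425, adjusted p = 0.0462, limma). Without T24P replicate 1 they were -1.30, -0.80 and -0.72, and CH16 was no longer called (adjusted p = 0.211). The call of CH16 was lost in 21 of the 36 leave-one-out fits in all, and those of chia4a and Cht10 in none. For Cht11 at 24 h the difference was -0.69 (SE 0.407, adjusted p = 0.358, limma) and did not pass, but without T24C replicate 2 it was -1.28 and did (adjusted p = 0.00530). For Cht2 it was -0.81 (adjusted p = 0.171, limma), with -0.43 without T24P replicate 1 and a call, at -1.14 (adjusted p = 0.0210), without T24P replicate 2. Cht6, at -0.88, was likewise called without T24P replicate 2, at -1.06 (adjusted p = 0.0182).

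The response to puncturing passed for no chitinase probe set at 6 h (0.014% of all) or at 24 h (0%). At 6 h 5 had an unadjusted p under 0.05 in limma, Cht2 and Cht6 among them at -1.34 (adjusted p = 0.626) and -1.21 (adjusted p = 0.502), and at 24 h 0 had. The 2-way ANOVA interaction, adjusted, called 0 in all 4 contrasts, and unadjusted it passed 6 at 6 h and 1 at 24 h for puncturing.

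**Figure D4:**
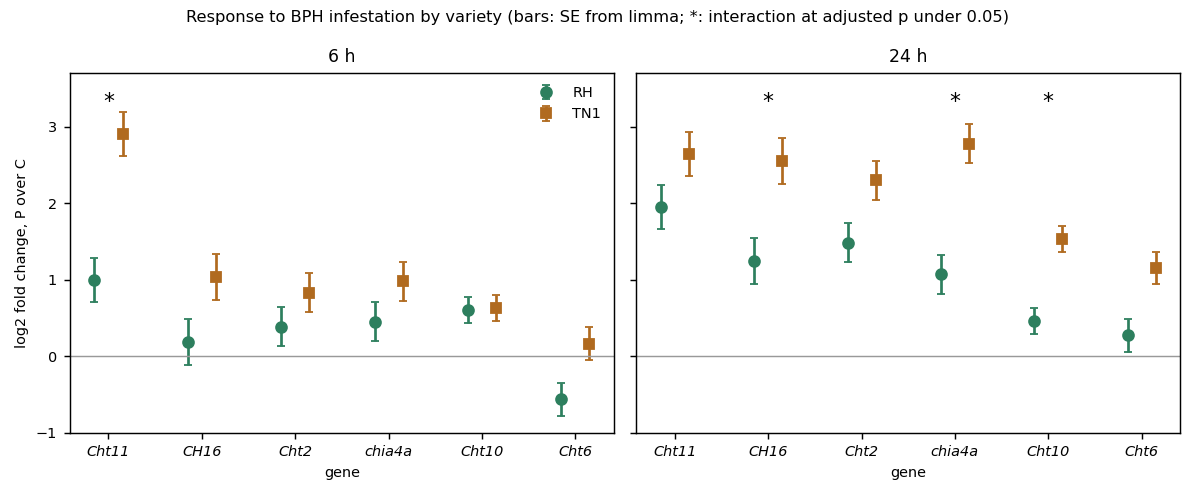
Log2 fold change of BPH infestation over untreated (y axis) for 6 chitinase genes at 6 h and 24 h in RH (circles) and TN1 (squares); bars are the SE from limma with 3 arrays a group, and a star marks an interaction at an adjusted p under 0.05. All TN1 points lie above the RH points, with stars on Cht11 at 6 h and on CH16, chia4a and Cht10 at 24 h.

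Between 6 and 24 h, hour of sampling and time since treatment cannot be told apart. In untreated seedlings 2 probe sets were called in R24C/R6C (2.68%), those of Cht2, both lower at 24 h. In T24C/T6C 1 was called (2.69%), Cht11 at 2.07 (SE 0.288, adjusted p = 1.84e-06, limma), or 1.47 without T24C replicate 2, and every T24C array lay above every T6C array. After puncturing CH16 fell in R24N/R6N (1 call, 2.56%), and Cht11 rose in T24N/T6N (1 call, 2.51%) by 1.21 (adjusted p = 0.00252, limma). Under infestation Cht11 rose in R24P/R6P (1 call, 3.19%) by 1.13 (adjusted p = 0.00389, limma). In T24P/T6P 5 were called (9.5%), all higher at 24 h: Cht11 at 1.80, Cht10 at 1.23, CH16 at 1.22 and Cht2 at 1.20 and 1.16. Without T24P replicate 1, Cht11 alone of these remained called (1.74), while Cht10 was at 0.95, Cht2 at 0.81 and CH16 at 0.62.

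Genes with the most similar pattern were sought among 2391 other named single-gene probe sets, by Pearson r over the 12 group means of log2 intensity, which share their arrays. For Cht11 they were TRXH, a thioredoxin (0.886), GSK1 (0.886) and NIN1 (0.883). Those for Cht2 were OsMT1c, a metallothionein (0.921), JAZ7, a JAZ repressor of jasmonate signalling (0.867), and LTP, a lipid transfer protein (0.811). CH16 was most similar to RBBI3.3, a Bowman-Birk proteinase inhibitor (0.898), IAA18 and PP2C30, and chia4a to WRKY51, a transcription factor (0.922), BG1 (0.890) and CIPK24 (0.882). Cht10 had GR, a glutathione reductase (0.943), OSK3 (0.940) and MSRA2-1, a methionine sulfoxide reductase (0.939), and Cht6 had MYB45 (0.854), SAPK3 (0.826) and RBBI3.3 (0.816). For Cht9 they were a peroxidase (0.737), SDH4 (0.729) and TBL11 (0.692). Among the chitinases r was 0.863 for chia4a with Cht2. For Cht11 it was 0.785 with Cht10, 0.431 with chia4a, 0.278 with CH16, 0.190 with Cht2, -0.016 with Cht6 and -0.440 with Cht9.

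Of the 9 genes (11 probe sets) matched to a list of chitin perception and signalling, none was called under either treatment at 6 h. In those comparisons 0.156% to 0.385% of all probe sets rose. In T24P/T24C, where 3.53% of all probe sets rose, 1 of the 11 did, that of the kinase gene BIMK1 (also MPK3), by 1.42 (adjusted p = 4.57e-07, limma). Another 2 fell, those of LYP4, a receptor-like protein with LysM domains (-1.21), and of the small GTPase OsRac1 (-1.10). The share of all probe sets that fell was not counted. The receptor gene CEBiP changed by 0.01 in T24P/T24C, and CERK1 (RLK9) by 0.79 (adjusted p = 1.40e-07, limma), below 2-fold. In R24P/R24C 0 of the 11 were called, where 0.956% of all probe sets rose. In the interaction of variety and infestation at 24 h 3 of the 11 passed, against 9.55% of all probe sets. All 3 had a positive difference of RH minus TN1, whereas the differences of the chitinases that passed were negative. The list also caught the actin gene RAC1 by its name, with 2 of the probe sets. Of 2 genes matched as pathogenesis-related, PBZ1, a PR10 protein, rose by 2.97 in R6P/R6C (adjusted p = 6.17e-05, limma), where no chitinase was called, by 1.92 in T6N/T6C and by 3.45 in T24P/T24C. The other, NH1, is a regulator of systemic acquired resistance that carries PR2 as a synonym, and it rose by 1.27 in T24P/T24C.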

How the data were processed

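The authors deposited linear intensities of 57194 probe sets on each of 36 Affymetrix Rice Genome Arrays; the submitters' processing notes name RMA and affy, with versions not given in the sources used here. RMA normalizes all arrays to 1 distribution, so a shift of the whole transcriptome would not be seen, and it compresses differences at low intensity. Groups were read from the sample labels.

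Intensities were transformed to log2 with no further normalization or filter. limma 3.58.1 in R 4.3.3 was fitted with 1 mean per group over all arrays (24 residual and 6.16 prior degrees of freedom), p-values were adjusted over all probe sets of each comparison, and a change was called at an adjusted p under 0.05 with a fold change of at least 2, or without the fold for interactions. The methods of the study name a one-way ANOVA without saying which groups entered it. As an alternative, an ANOVA was run on only the groups of each comparison, which may differ from that of the study. A log2 change or SE is on the log2 scale, and an array value is an intensity. The number of arrays, 3 per group, limits the precision. The fit was tested on simulated data.

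Of all probe sets, 22436 had 1 gene in the platform annotation, 95 had several and 34663 had none. Members were named through gene numbers in the RefSeq table of assembly ASM3414082v1, which was used for names and neighbours only, and no sequence is shown. Every probe set of a member is accounted for. Array values are given for members called under treatment or in the interaction, and the 3 most similar genes were taken from probe sets with a mean log2 intensity of at least 6. The members, the lists and the rule for named genes were chosen with earlier results of these data known. Lists of beta-1,3-glucanases and of xylanase inhibitors matched 1 gene each, GLU1, which is an endo-1,4-beta-glucanase, and RIXI, at a mean intensity of 9.38, and neither was called under treatment; a list of lysozyme and chitin-binding genes matched 0. Alternatives were the ANOVA, other groups fitted, a replicate block, quantile normalization, median centring, array weights, trend and robust variances, a filter on dim probe sets, no minimum fold, an offset of 16 before log2, another probe set, and each array left out in turn. The sample labels do not say whether equal replicate numbers of different groups belong together, and the main fit did not treat them as pairs.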

Additional observations from a re-analysis of the deposited data

Results flagged for a closer look

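In 4 cases the response of a chitinase gene to BPH infestation differed between the varieties by limma's interaction term, with 3 arrays per group. At 6 h the response of Cht11 differed by -1.92 (RH minus TN1, adjusted p = 0.0482), with log2 changes of 0.99 in RH and 2.91 in TN1. The T6P arrays of Cht11 spread from 293 to 589.7. At 24 h the difference was -1.31 for CH16 (adjusted p = 0.0462), with 1.24 in RH and 2.55 in TN1. It was -1.71 for chia4a (adjusted p = 0.00213), with 1.07 and 2.78, and -1.08 for Cht10 (adjusted p = 0.00306), with 0.46 and 1.53. The first 2 lie close to the threshold. For the 3 genes at 24 h, T24P replicate 1 was the highest array, at 801 for CH16, 1455 for chia4a and 295 for Cht10. Over all probe sets T24P replicate 1 had an array weight of 0.231, the lowest of all arrays, with 0.256 for R24P replicate 1. Its correlation with T24P replicate 2, 0.988, was the lowest within any group. What sets T24P replicate 1 apart was not tested.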

How the results depend on the processing

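Of the 57 calls, 8 held under every alternative apart from another probe set and with every array left out, and 26 were lost without at least 1 array. Of the 8, 7 were of chia4a and Cht11, which had no other probe set on which to test them. The remaining call, Cht2 in R24P/R24C, was also made on its other bright probe set and not on its dim one. The one-way ANOVA with adjustment called 0 instead of 11 for puncturing, 4 instead of 13 for infestation and 1 instead of 10 between the treatments. It called 1 instead of 8 between varieties and 4 instead of 11 between times, and the 2-way ANOVA called 0 of 4 interactions. These tests took each variance from the groups compared only, did not share it over probe sets, and had few degrees of freedom. Trend and robust variances called 7 for puncturing and 2 interactions, an offset of 16 called 7 for puncturing, 5 between varieties and 2 interactions, and fitting only the groups compared left 1 interaction; the cause was not tested. Without a minimum fold, 18 were called between varieties and 22 between times, by construction. With each array left out in turn, the calls ranged from 7 (without T24C replicate 1) to 11 for puncturing, 13 to 15 for infestation, 7 (without T6N replicate 1) to 11 between treatments, 6 to 10 between varieties, 7 (without T24P replicate 1) to 12 between times and 2 to 7 (without T24P replicate 2) for interactions. The dim probe set of Cht2 gave -0.000810 for T24P/T6P where the other 2 rose.

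With the replicate block, 11 calls were made for puncturing and 14 for infestation, and 56 of the 57 held, the interaction of Cht11 at 6 h being lost. Of 24 pairs of equally numbered samples, 4 had deviations correlated over 0.1 (range -0.209 to 0.267). Cht4, Cht7, Cht9 and the dim Cht2 probe set lay below the array medians, where a change may be compressed.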
